A study of Mus musculus with 20 samples.

Results

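miR-451a and the 2 arms of miR-144, miR-144-3p and miR-144-5p (mmu-miR-451a, mmu-miR-144-3p and mmu-miR-144-5p in the files), are the mature microRNAs (miRNAs, short RNAs that repress messenger RNAs by base pairing) of a gene pair known for its activity in red cell precursors. They were chosen by name, as 3 of the 1881 mature mouse miRNAs on the array, and all 3 were found. The tissue was ascending aorta together with its atherosclerotic lesion, from male mice that carry 2 altered genes, given in the labels as Apobtm2Sgy/Ldltm1Her. Every group shares this genotype, so no array shows wild-type tissue. Mice had been fed a high fat diet for 6, 18 or 30 weeks (3 arrays at each time) or chow for 6, 18 or 30 weeks (3 arrays at each time), and 2 further arrays came from chow-fed mice at week 0. Each of the 20 samples was hybridised to its own Agilent array in 1 colour, as total RNA. The labels do not say whether replicates came from separate animals, so p-values cover only the spread between samples, which may be technical.

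As background, the primary transcript of the pair is switched on by the transcription factor GATA1 during red cell formation and yields both hairpins. The miR-144 hairpin is cut by Dicer like most others, while that of miR-451a has a stem too short for Dicer and is cut by Argonaute 2, so that the mature strand runs from the stem into the loop. miR-451a is among the most abundant miRNAs of red cells, and a known target is the messenger RNA of the adaptor protein 14-3-3 zeta. miR-144-3p is the guide arm of its hairpin and miR-144-5p the minor arm. In RNA from whole tissue, fewer cells of a type and less RNA per cell cannot be told apart.

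The mature sequences show how the members differ. They come from RefSeq (assembly GRCm38.p6), run 5′ to 3′, and have the seed, bases 2 to 8, which pairs with targets, in capitals. miR-101a-3p is added because it shares most of the seed of miR-144-3p.
miR-451a: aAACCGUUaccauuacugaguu
miR-144-3p: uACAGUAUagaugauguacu
miR-144-5p: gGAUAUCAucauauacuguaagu
miR-101a-3p: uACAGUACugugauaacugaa
The 3 members have 3 different seeds, and 0 other mature mouse miRNAs in the table share any of them. miR-144-3p and miR-101a-3p share bases 2 to 7 and differ in the seed by the substitution U8C, counted from the 5′ end with the base of miR-144-3p first. The members are poor in G and C, at 36.4% for miR-451a, 30.4% for miR-144-5p and 30.0% for miR-144-3p.

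The hairpins show where each mature strand lies, in capitals. In that of Mir144 the 5p arm comes before the loop and the 3p arm after it, and in that of Mir451a the mature strand crosses from the stem into the loop.
Mir144: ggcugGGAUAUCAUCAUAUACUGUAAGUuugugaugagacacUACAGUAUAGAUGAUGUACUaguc
Mir451a: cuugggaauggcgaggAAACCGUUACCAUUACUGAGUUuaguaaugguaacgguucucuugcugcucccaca
Both hairpins lie on the plus strand of chromosome 11. The files place the longer probe of each member, in build mm9, at 77886513 to 77886534 for miR-144-5p, 77886550 to 77886568 for miR-144-3p and 77886689 to 77886709 for miR-451a. In the RefSeq annotation 0 genes span the pair, its neighbours are Flot2 and Eral1, and Mir451b lies on the opposite strand at the same place as Mir451a.

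Each member was read by a pair of probes with 15 spots each, which differ by 1 base. For miR-144-5p they disagreed, and their sequences show the difference, the longer probe ending in 1 more base.
longer miR-144-5p probe: acttacagtatatgatgatatcc
shorter miR-144-5p probe: acttacagtatatgatgatatc
The longer was well above background on 10 arrays and the shorter on 0. Values of miR-144-5p average both probes, although the shorter gave no signal above background. The miR-451a probes differed by a steady ratio, the longer being 1.61-fold brighter with an SD of 0.056 on the log2 scale over 20 arrays, and the miR-144-3p probes by 1.09-fold (SD 0.030 over the 14 arrays where both were well above background).

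Values are given as scaled intensity, the processed spot intensity of the deposited files divided by the array's 75th percentile (taken over 192 miRNAs that every array detected) and multiplied by a constant of 775, and differences are on the log2 scale with a floor at 2.87. Between 316 and 742 miRNAs were detected per array, and the fewest were 355 on week 30 high fat replicate 1, 345 on week 6 high fat replicate 3, 328 on week 18 high fat replicate 3 and 316 on week 18 chow replicate 1. By the file headers, weeks 0 and 6 were on slide 1, the chow arrays of weeks 18 and 30 on slide 2 and the high fat arrays of week 30 on slide 3, while the week 18 high fat group was split, with replicate 3 on slide 3 and the others on slide 2. Within a group, week 30 high fat replicates 2 and 3 and week 6 chow replicates 1 and 2 were near-identical, with SDs of the log2 difference of 0.18 and 0.28, against a median of 1.02 over 19 within-group pairs. Week 18 high fat replicate 3 was as close (0.19) to week 30 high fat replicate 2, an array of another group. For 8 arrays the position in the description differed from that in the file, which for week 18 high fat replicate 1 and week 18 chow replicate 1 would switch the diet. Of the tissue's own markers, smooth muscle miR-145a-5p and miR-143-3p and endothelial miR-126a-3p were well above background on all 20 arrays. Of the red cell markers, miR-451a and miR-486a-5p were so on 20 arrays and miR-144-3p on 15.

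miR-451a, the abundant member, was well above background on every array, with 416 as its lowest, 3293 as its median and 8434 as its highest scaled intensity. At week 6 it was at 1700.5, 3437 and 4409.6 in high fat aortas, against 7584, 8434 and 5462 in chow aortas. The high fat arrays all lay below the chow arrays. At week 18 it was at 2607, 3271 and 2027 in high fat aortas, against 416, 4905 and 3316 in chow aortas. Here the chow group spanned the high fat group, with week 18 chow replicate 1 far below the other two. At this week the diets did not overlap for 0.164% of all miRNAs with high fat below chow and for 1.15% with high fat above. At week 30 it was at 586, 1930.3 and 1639 in high fat aortas, against 4612, 2341 and 1821 in chow aortas. The groups overlapped, and week 30 high fat replicate 1 was the second lowest array of the series. The week 0 chow arrays, at 7154 and 4455, lay within the range of the week 6 chow arrays and just below it.

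Ordered by their mean on the log2 scale, the groups ran from week 6 chow (12.78 ± 0.33, SD, n = 3) through week 0 chow (12.46 ± 0.48, n = 2), week 6 high fat (11.53 ± 0.71, n = 3), week 30 chow (11.40 ± 0.69, n = 3), week 18 high fat (11.34 ± 0.35, n = 3) and week 18 chow (10.88 ± 1.91, n = 3) to week 30 high fat (10.26 ± 0.93, n = 3). Of the neighbours in this order, only week 0 chow and week 6 high fat were further apart (0.93) than the larger of their SDs, and the other 5 neighbouring pairs were not. The ends of the order were 2.52 apart.

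**Figure D1:**
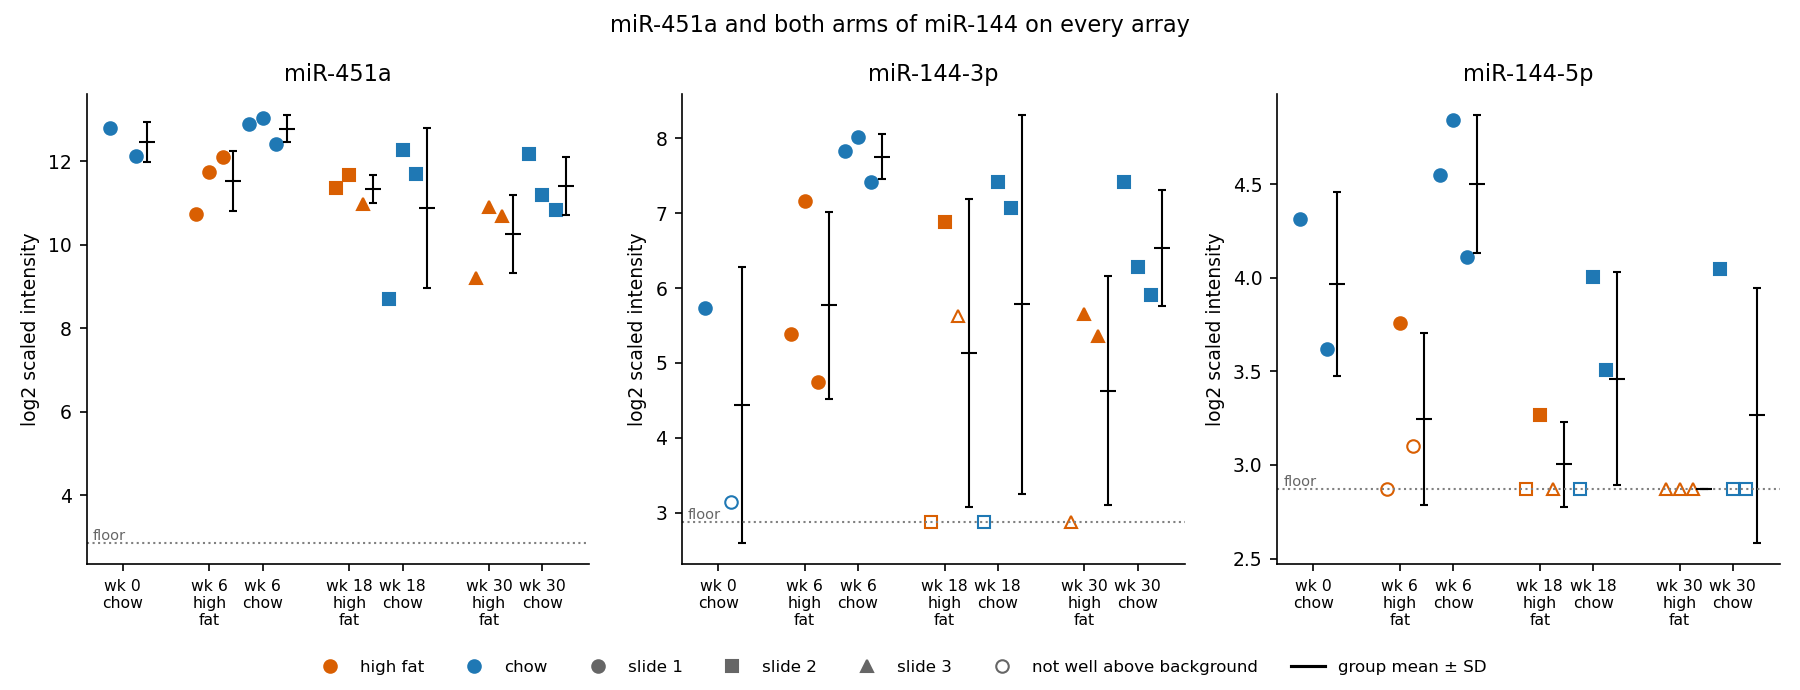
Each panel plots the log2 scaled intensity of 1 miRNA on every array by diet and week, with the marker shape for the slide, open markers where the miRNA was not well above background, and black bars for the group mean ± SD. At week 6 the high fat arrays of all 3 miRNAs lie below the chow arrays, and the lowest miR-451a values are single arrays of week 18 chow and week 30 high fat.

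miR-144-3p, the guide arm, was well above background on 15 arrays and at the floor on 3. At week 6 it was at 42.0, 143 and 26.9 in high fat aortas, against 227, 258 and 171 in chow aortas, without overlap. At week 18 it was at 7.19, 118 and 49.5 in high fat aortas, against 2.46, 171 and 134 in chow aortas. Each diet had an array near 0 at that week, and the groups overlapped. The value of 49.5, on week 18 high fat replicate 3, was not well above background, and the negative control spots of that array had an SD of 22.3, against at most 2.53 on the other arrays. At week 30 it was at -0.473, 50.4 and 41.0 in high fat aortas, against 170.0, 77.7 and 60.2 in chow aortas, again without overlap. At week 0 it was at 53.3 and 8.81 in chow aortas, both below all 3 week 6 chow arrays.

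miR-144-5p, the minor arm, was well above background on 10 arrays and at the floor on 9. At week 6 it was at 3.51, 13.5 and 8.58 in high fat aortas, where 1 of 3 arrays was well above background, against 23.4, 28.7 and 17.2 in chow aortas, where all 3 were. The groups did not overlap. At week 18 it was well above background on 1 of 3 high fat and 2 of 3 chow arrays, the noisier high fat replicate 3 being among those without. At week 30 it was so on 0 of 3 high fat arrays and 1 of 3 chow arrays, so no size of that difference is given. At week 0 it was at 19.9 and 12.3 in chow aortas.

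The diet comparisons asked whether a high fat diet altered these miRNAs at each time. No member passed at week 6, 18 or 30 or in the mean over them (limma, adjusted p below 0.05 over 609 miRNAs). In all 10 comparisons between groups, 0 of 30 tests of a member passed after adjustment, and 6 of 30 had an unadjusted p below that threshold. Those 6 fell in the diet comparison of week 6, the mean over weeks, and the chow steps to week 6 and to week 18. Of all 609 miRNAs, 73, 97, 174 and 182 had such a p there. The members vary together and the comparisons share groups, so the 30 tests are not independent. At week 6, limma's differences, high fat minus chow, were -1.25 for miR-451a (SE 0.73, adjusted p = 0.562), -1.99 for miR-144-3p (SE 1.17, adjusted p = 0.562) and -1.26 for miR-144-5p (SE 0.43, adjusted p = 0.21). Of all 609 miRNAs, 18 were called at that week, or 2.96%, all lower in high fat, and 9 were with the floor at the median array. Groups that did not overlap, with high fat below chow, were found for 13.5% of all miRNAs at week 6, and for 3 of 3 members. Of these, miR-144-5p was well above background on all arrays only in week 0 chow and week 6 chow. It was thus tested only through groups where it was high, and 1 of its week 6 high fat arrays was at the floor. Nothing is read from its differences against those 2 groups. Both diets of week 6 lay on slide 1, and with only slide 1 fitted 0 of the members were called.

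Marker levels of other cell types stood as follows at week 6. Leukocyte markers summed to between 571 and 5867 in high fat aortas and between 2517 and 3712 in chow aortas, with 4 of 4 markers well above background on all arrays of both groups. Striated muscle markers summed to between 5092 and 10190.4 in high fat aortas and between 1980 and 7406 in chow aortas, with 4 of 7 markers well above background on all arrays of both. Endothelial markers summed to between 2948 and 4598 in high fat aortas and between 1889 and 2978 in chow aortas, with both markers well above background throughout. Epithelial markers summed to between 103 and 1638 in high fat aortas and between 606 and 1930.1 in chow aortas, with 4 of 7 and 7 of 7 markers well above background on all arrays. Smooth muscle markers summed to between 1259 and 1768 in high fat aortas and between 1091 and 1454 in chow aortas (3 of 4 markers in both), and adipose markers to between 2237 and 2341 in high fat aortas and between 2235 and 2888 in chow aortas (4 of 5 in both). These ranges overlapped. Liver miR-122-5p did not overlap, at 4.38 to 8.00 in high fat aortas and 15.9 to 22.9 in chow aortas, and in neither group was it well above background on all arrays. The part of these markers in the week 6 values was not tested.

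At week 18 the differences were 0.45 for miR-451a (SE 0.73), -0.65 for miR-144-3p (SE 1.17) and -0.46 for miR-144-5p (SE 0.43), each with an adjusted p of 0.953 in limma. Of all miRNAs 0 were called at that week, or 0%, and 7 had an unadjusted p below 0.05. Without week 18 chow replicate 1 the miR-451a difference turned to -0.64, and without week 18 high fat replicate 1 that of miR-144-3p turned to 0.47. The signs of miR-451a and miR-144-3p at week 18 thus rested on single arrays. That of miR-144-5p stayed negative without any 1 array, but 2 of 3 high fat arrays and 1 of 3 chow arrays were at the floor. Its size and its steady sign are therefore limited by the floor.

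At week 30 the differences were -1.14 for miR-451a (SE 0.73, adjusted p = 0.338) and -1.91 for miR-144-3p (SE 1.17, adjusted p = 0.328) in limma. Of all miRNAs 0 were called, or 0%, with 103 at an unadjusted p below 0.05. Groups that did not overlap, with high fat below chow, were found for 25.6% of all miRNAs at this week, and among the members for miR-144-3p alone. With high fat above chow the share was 28.6%. The diets lay on different slides at week 30. With slide as a block, a fit that links the slides through week 18 high fat, the difference was -0.61 for miR-451a and -2.66 for miR-144-3p, with no call. That link rests on week 18 high fat replicate 3, the only array of its group on slide 3 and the one with the noisiest negative controls. Without the block and without week 30 high fat replicate 1, the difference was -0.60 for miR-451a and -1.03 for miR-144-3p.

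Averaged over the 3 weeks, high fat minus chow was -0.65 for miR-451a (SE 0.42, adjusted p = 0.358) and -1.52 for miR-144-3p (SE 0.68, adjusted p = 0.307) in limma. The mean of miR-144-5p did not pass either (adjusted p = 0.272 in limma) and takes in the floor values of weeks 18 and 30, so no size is given. Of all miRNAs 0 were called, or 0%, and 97 had an unadjusted p below 0.05. The median difference over all miRNAs was -0.11. The 95% confidence intervals ran from -1.53 to 0.24 for miR-451a and from -2.94 to -0.092 for miR-144-3p. The size for miR-451a depended on single arrays, at -1.01 when replicate 1 of week 18 chow was left out and -0.42 when replicate 2 of that group was. A fit that weights arrays by their quality called all 3 members, at adjusted p = 0.0212, 0.0203 and 0.0131 for miR-451a, miR-144-3p and miR-144-5p, while the other alternatives ran up to 0.779, 0.685 and 0.872. That fit gave week 30 high fat replicates 2 and 3 weights of 11.8 and 3.81 and week 6 chow replicates 1 and 2 weights of 7.08 and 5.90, the near-identical pairs, and week 18 chow replicate 1 a weight of 0.12. A moderated F test for a diet effect that differs between weeks called 0 of the 3 members (adjusted p between 0.543 and 0.824), with 6 of all miRNAs called, or 0.985%.

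**Figure D2:**
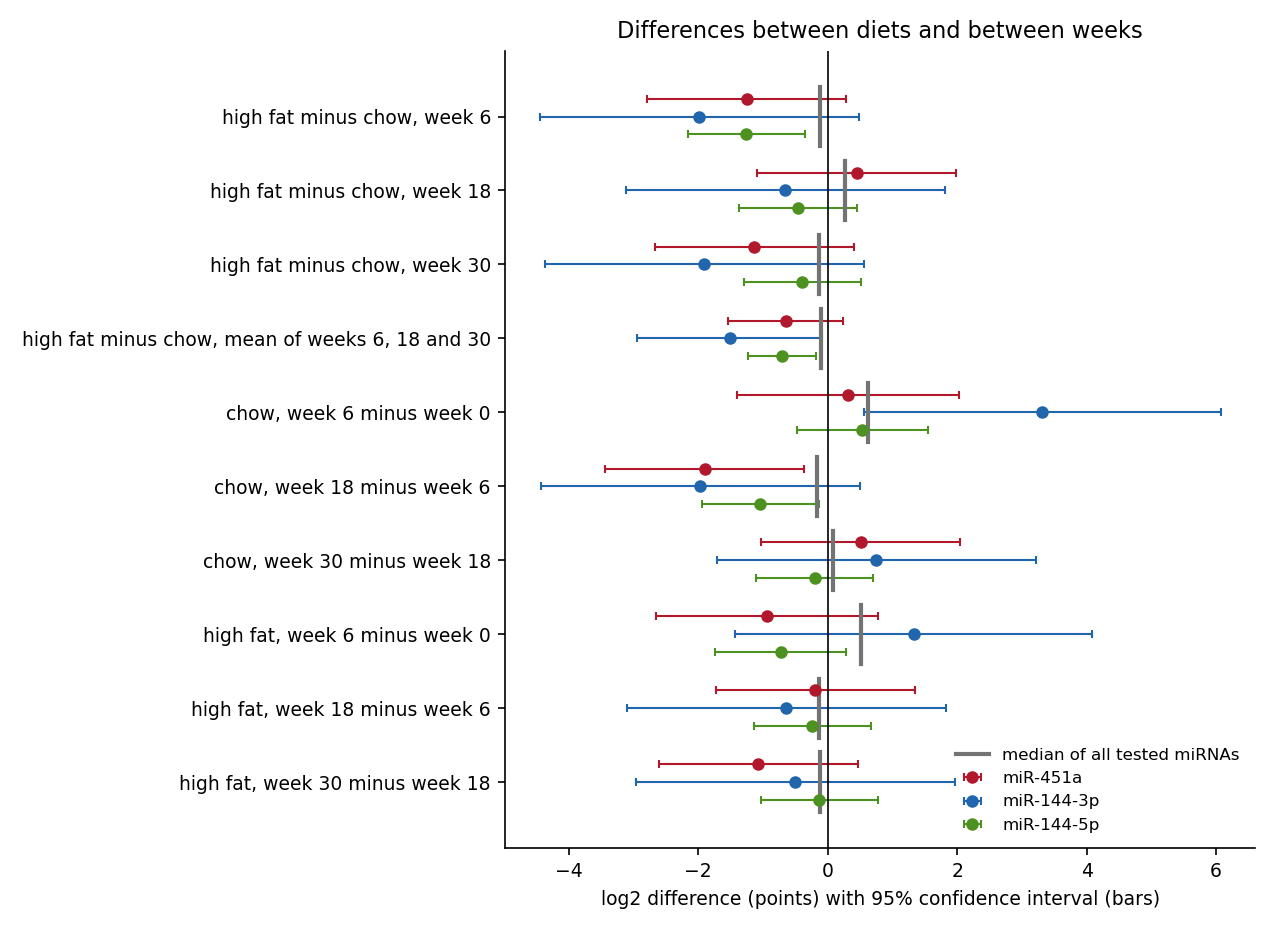
Points are limma's log2 differences of miR-451a and both arms of miR-144 for each comparison named on the left, with 95% confidence intervals as bars and the median difference of all 609 tested miRNAs in grey. The diet differences of week 6, week 30 and the mean lie below 0 for all 3, with those of miR-144-5p after week 6 resting in part on values at the floor, and miR-144-3p in chow at week 6 minus week 0 has the highest value, at 3.32.

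The steps in time asked how the levels moved within a diet. In chow aortas at week 6 against week 0, miR-144-3p was 3.32 higher on the log2 scale (SE 1.31, adjusted p = 0.0844 in limma), at 7.75 ± 0.30 (SD, n = 3) against 4.44 ± 1.84 (n = 2). miR-451a differed by 0.32 (SE 0.82) and miR-144-5p by 0.53 (SE 0.48), close to the median shift of all miRNAs, 0.62. Of all miRNAs 132 were called in this step, or 21.7%, all higher at week 6, and miR-144-3p was not among them. It was called in 6 of 37 alternatives, among them the fit of slide 1 alone (adjusted p = 0.0437) and the fit without week 18 chow replicate 1 (adjusted p = 0.0338), over a range of 4.6e-05 to 0.576. Its size rested on single week 0 arrays, at 2.02 without week 0 chow replicate 2, where miR-144-3p was not well above background, and 4.61 without replicate 1.

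Markers of other cell types moved in both directions in the same step. Epithelial markers summed to between 606 and 1930.1 in week 6 chow aortas and between 118 and 120 in week 0 chow aortas, with 7 of 7 and 1 of 7 markers well above background on all arrays. Leukocyte markers summed to between 2517 and 3712 at week 6 and between 631 and 1936 at week 0, with 4 of 4 markers so on both. Of these 4, 2 were higher at week 6 and 2 lower. Striated muscle markers summed to between 1980 and 7406 at week 6 and between 447 and 3872 at week 0, with 4 of 7 and 3 of 7 markers so, and these ranges overlapped. Endothelial markers fell, from between 3355 and 5341 at week 0 to between 1889 and 2978 at week 6. Smooth muscle markers fell from between 1757 and 2405 to between 1091 and 1454, and adipose markers from between 3362 and 6056 to between 2235 and 2888. Liver miR-122-5p was at 1.52 to 7.48 at week 0 and at 15.9 to 22.9 at week 6. In neither group was it well above background on all arrays. Called among them were miR-205-5p, an epithelial miRNA, and miR-206-3p, a skeletal muscle miRNA (5.12, SE 1.36, adjusted p = 0.0224 in limma). miR-205-5p was at the floor on both week 0 arrays, so no size or p-value is given for it. miR-206-3p was at the floor on week 0 chow replicate 1, which limits its size. The part of these markers in the miR-144-3p value was not tested.

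In chow aortas at week 18 against week 6, miR-451a was at -1.90 (SE 0.73, adjusted p = 0.0875), miR-144-3p at -1.97 (SE 1.17, adjusted p = 0.289) and miR-144-5p at -1.04 (SE 0.43, adjusted p = 0.111) in limma, with 15.9% of all miRNAs called, all lower at week 18. Week 18 chow lay on slide 2 and week 6 on slide 1, so time and slide cannot be told apart in this step. The values depended on single week 18 arrays. That of miR-451a was -0.80 without week 18 chow replicate 1 and -2.58 without replicate 2 (adjusted p = 0.0199 in limma). miR-144-5p was tested only through week 0 chow and week 6 chow, where it was high. On week 18 chow replicate 1 it was at the floor, so nothing is read from its value in this step. Leukocyte markers summed to between 374 and 802 in week 18 chow aortas and between 2517 and 3712 in week 6 chow aortas, with 2 of 4 and 4 of 4 markers well above background on all arrays. The mean log2 values of epithelial markers (7 of 7) and of liver miR-122-5p were also lower at week 18. Epithelial sums overlapped, between 17.6 and 2466 at week 18 against between 606 and 1930.1 at week 6. In neither group was miR-122-5p well above background on all arrays. Smooth muscle markers went the other way, between 1550 and 2651 at week 18 against between 1091 and 1454 at week 6. Of those tested, 3 of 3 were higher, as were 5 of 5 adipose markers. Adipose, endothelial and striated muscle sums overlapped. The part of these markers was not tested. In the other steps, chow week 30 minus week 18 and the high fat steps, no member passed, with sizes between -1.07 and 1.33, and 0% of all miRNAs were called.

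Across the 20 arrays the members varied together, with miR-144-3p not well above background on 5 arrays. miR-451a and miR-144-3p had a Pearson r of 0.66 (permutation p = 0.00136, adjusted over 3 pairs p = 0.00204) and a Spearman rho of 0.71 (permutation p = 0.00063). Without the 2 arrays farthest from the miR-451a median, week 30 high fat replicate 1 and week 18 chow replicate 1, r was 0.42 (permutation p = 0.0831), so the linear relation rests on those arrays, while rho was 0.61 (permutation p = 0.00812). Within slide 1 r was 0.42 and rho 0.67 (exact permutation p = 0.314 and 0.0831, n = 8), within slide 2 they were 0.75 and 0.90 (exact permutation p = 0.0292 and 0.00516, n = 8), and slide 3 held too few arrays. These values share each array's scaling and depth, and the permutations take near-identical arrays as separate samples. Variation alongside miR-451a was not particular to its locus. By the SD of the log2 difference over the 20 arrays, endothelial miR-126a-3p (0.71) and leukocyte miR-223-3p (0.86) lay near it. Markers of the same cell type differed in this. Leukocyte miR-150-5p (1.73) lay far from it, and smooth muscle miR-143-3p (1.06) lay nearer than miR-145a-5p (1.52). The median over 191 miRNAs was 1.56. Correlations of other miRNAs with miR-451a were not computed.

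miR-451a and miR-144-5p had r = 0.80 and rho = 0.94 (permutation p = 4e-05 and 1e-05, adjusted over 3 pairs p = 0.00012 and 3e-05). Without the same 2 arrays r was 0.93, and it was 0.88 within slide 1 and 0.67 within slide 2 (exact permutation p = 0.00191 and 0.0435, n = 8 each). miR-144-5p was well above background on no array whose miR-451a lay below that of week 18 high fat replicate 2, so the lower part of that relation is at the floor. The arms of miR-144 had r = 0.64 and rho = 0.74 (permutation p = 0.00279 and 0.00035, adjusted over 3 pairs p = 0.00279 and 0.000525).

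**Figure D3:**
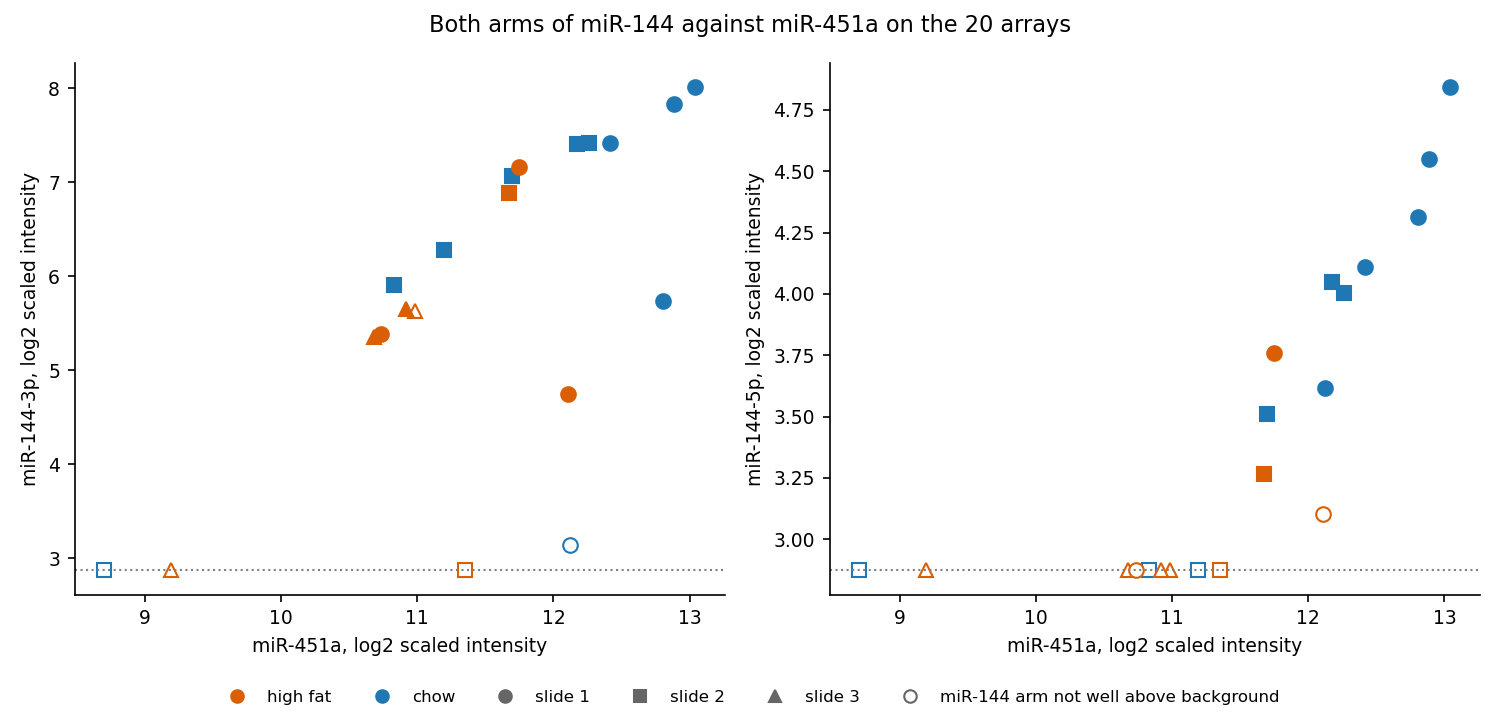
Each point is an array, with the log2 scaled intensity of miR-451a on the horizontal axis and that of miR-144-3p (left) or miR-144-5p (right) on the vertical axis, coloured by diet, shaped by slide, and open where the miR-144 arm was not well above background. Most arrays fall on 1 rising line for miR-144-3p, and both week 0 chow arrays, replicate 3 of week 6 high fat and replicate 1 of week 18 high fat lie below it, 2 of these 4 with open markers.

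The log2 difference between miR-144-3p and miR-451a removes what moves both alike. Of the 15 arrays where miR-144-3p was well above background, 13 lay within 0.7 of the median of all arrays, between -0.18 and 0.57. That limit was set after the values were seen. On the other 2 of these arrays miR-144-3p lay further below miR-451a, 3.76-fold on replicate 1 of week 0 chow and 4.59-fold on replicate 3 of week 6 high fat. On the 5 arrays where miR-144-3p was not well above background the gap is set by the floor or the background, and no fold is given.

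Base composition of the miRNAs moved with some of these arrays. Over the miRNAs detected on all arrays, 159 of 192 had a sequence in RefSeq, and 10 of these, leaving out the members, had at most 40% G and C while 64 had at least 60%. The median deviation of the low-GC miRNAs from their own means, minus that of the high-GC miRNAs, was -3.20 on week 30 high fat replicate 1 and -2.36 on week 18 chow replicate 1, the 2 arrays with the lowest miR-451a, and -1.73 on week 18 high fat replicate 1. It was -0.99 and -1.41 on the other week 30 high fat arrays, against 0.67, 0.23 and 0.28 on the week 30 chow arrays. At week 6 it was -0.25, 1.75 and 0.62 on the high fat arrays, against 0.78, 1.19 and 0.39 on the chow arrays. On the week 0 chow arrays it was 1.26 and 1.25. The part of base composition in the members' values was not tested.

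**Figure D4:**
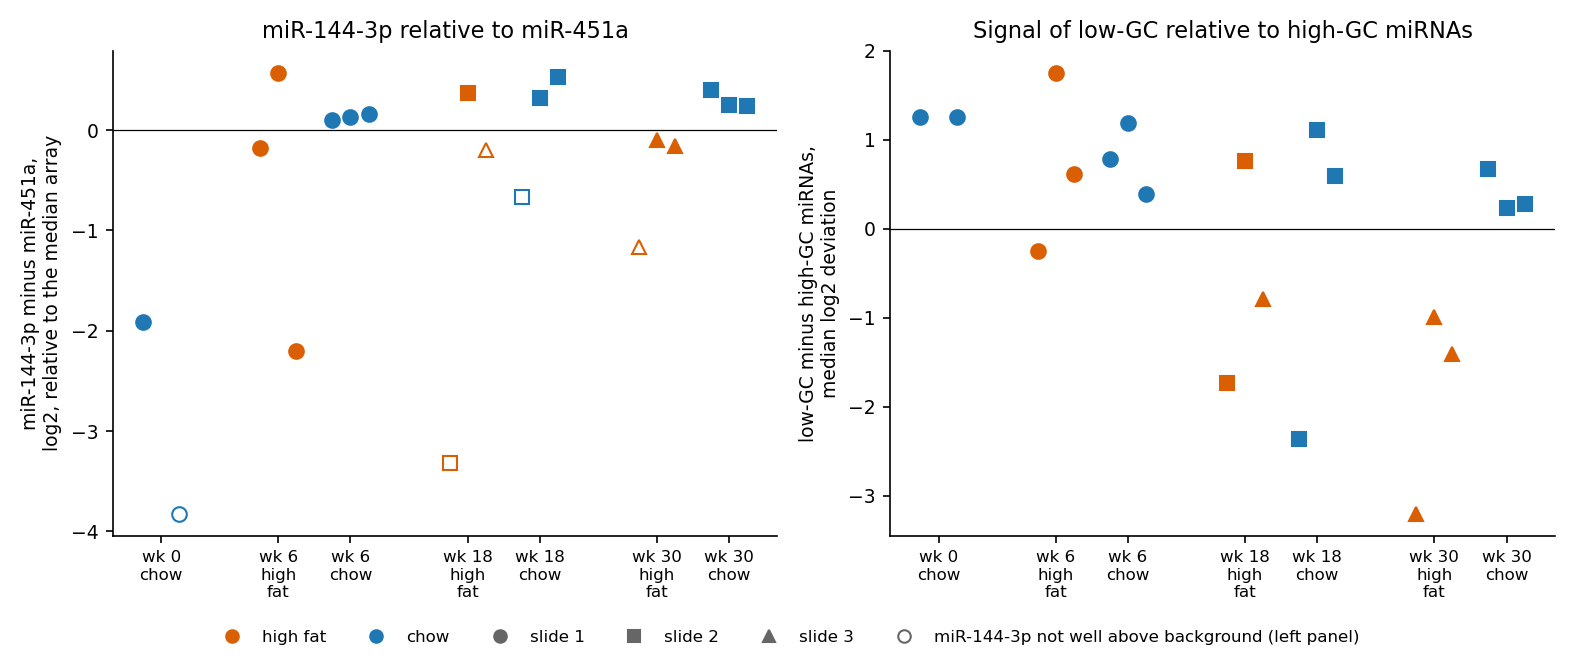
The left panel plots, for every array by group, miR-144-3p minus miR-451a in log2 units relative to the median array, and the right panel the median log2 deviation of low-GC minus that of high-GC miRNAs, with colours for diet, shapes for slide and open markers on the left where miR-144-3p was not well above background. The 2 lowest filled points on the left are replicate 3 of week 6 high fat and replicate 1 of week 0 chow, the open points are set by the floor or the background, and the lowest on the right is week 30 high fat replicate 1 at -3.20.

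The miRNAs with the pattern most like miR-451a, by the smallest SD of the log2 difference over the 20 arrays among 191 others detected on all of them, were miR-106b-5p (SD 0.46), miR-16-5p (0.51), let-7g-5p (0.56), let-7i-5p (0.59) and miR-15a-5p (0.61). The median SD over the 191 was 1.56. miR-16-5p and miR-15a-5p are of 1 seed family, as are both let-7 members. Their diet differences at week 6 ran from -0.92 for miR-15a-5p to 0.010 for let-7g-5p and at week 30 from -1.78 for miR-15a-5p to -0.81 for miR-106b-5p, with no call.

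miR-486a-5p, which is made in red cell precursors and in muscle, did not lie near miR-451a by this measure, at rank 88 (SD 1.48). It was highest, at a log2 scaled intensity of 8.64, on week 30 high fat replicate 1 and second highest, at 7.88, on week 18 chow replicate 1, the 2 arrays where miR-451a was lowest. At week 30 its diet difference was 1.26 (SE 0.60, adjusted p = 0.289 in limma), opposite in sign to that of miR-451a, and at week 6 it was -0.58 (SE 0.60).

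**Figure D5:**
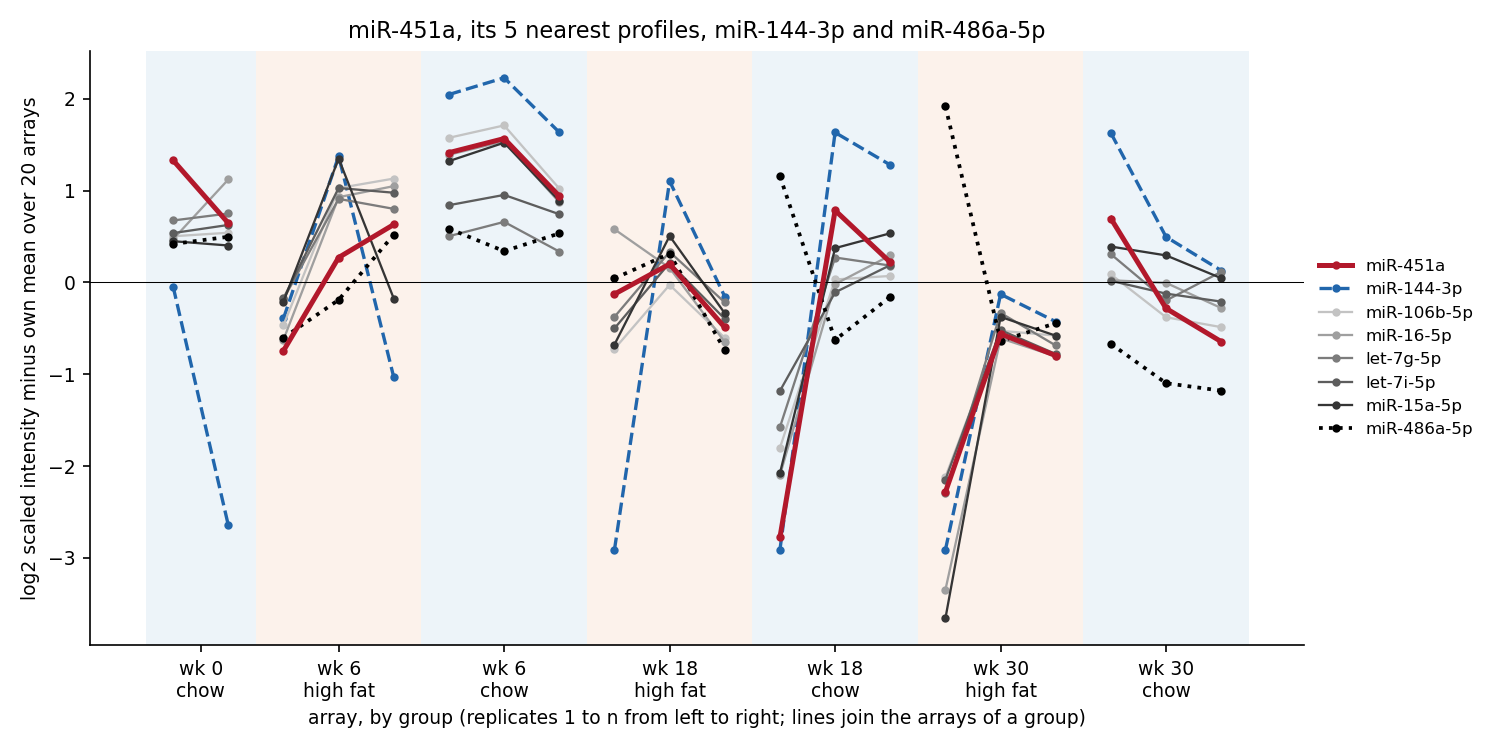
Lines give the log2 scaled intensity of each miRNA minus its own mean over the 20 arrays, by group. The 5 nearest miRNAs (grey) drop with miR-451a (red) on replicate 1 of week 30 high fat and replicate 1 of week 18 chow, where miR-486a-5p (dotted) is highest, and miR-144-3p (dashed) departs from miR-451a at week 0.

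Of the 9 other miRNAs listed as abundant in red cells, 8 were on the array and 6 were tested. At week 6, 1 of 6 was lower in high fat and 0 higher, with a median difference of -1.35 against -0.12 over all 609 miRNAs. The one called was miR-363-3p, which was well above background on 3 arrays in all, those of week 6 chow. It was tested only because of that group, so it had to differ from it, and nothing is read from its calls. The counts and medians of this paragraph include it, so nothing is read from the medians set against all miRNAs. Its mean log2 value was 2.90 in high fat aortas, against 5.33 in chow aortas, and no fold or p-value is given. The others were miR-15b-5p (-1.52, SE 0.93), miR-92a-3p (-1.38, SE 0.71), miR-25-3p (-1.33, SE 0.47, adjusted p = 0.213), miR-16-5p (-0.82, SE 0.71) and miR-486a-5p, given above. At weeks 18 and 30, 0 of 6 were called in either direction, with medians of -0.038 and -0.040, against 0.27 and -0.14 over all miRNAs. In chow aortas at week 6 against week 0, 1 of 6 was higher, miR-363-3p, a call that again follows from its filter. At week 18 against week 6 in chow aortas, 2 of 6 were lower, miR-363-3p, with the same limit, and miR-25-3p. The log2 difference of miR-25-3p was -2.11 (SE 0.47, adjusted p = 0.00645 in limma). Of all 609 miRNAs, 15.9% were called in this step, all lower at week 18, and time and slide cannot be told apart in it. The remaining 2 miRNAs on the array, miR-486a-3p and miR-486b-3p, were each well above background on 2 arrays.

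miR-101a-3p, the relative of miR-144-3p by seed, had a value of the other sign at week 6, with a diet difference of 0.58 (SE 0.95). miR-101c, whose sequence is part of that of miR-101a-3p but starts 1 base later and so has another seed, differed by 0.63 (SE 0.97), while miR-101b-3p was well above background on 0 arrays. At week 30 miR-101a-3p was at -1.84 (SE 0.95, adjusted p = 0.295 in limma) and miR-101c at -1.61 (SE 0.97). Neither was called in any diet comparison, and the difference between them and miR-144-3p was not tested.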

How the data were processed

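The deposited files hold spot intensities, made per the submitters' processing notes with Agilent Feature Extraction 11.5.1, background-subtracted and not scaled between arrays per the file headers. The deposited value table repeated this processed intensity in all 20 columns. Control spots (2164 of each array) and outlier spots (1370 to 2199 per array) were not used. The mean over spots gave the probe, and the mean over probes the miRNA. Detection, or well above background, means that for some probe of the miRNA a share of at least 0.5 of its usable spots had that flag. Signals were scaled to the 75th percentile of the 192 miRNAs detected on all arrays, floored, and put on the log2 scale. The floor is the upper quartile over arrays of each array's lowest detected signal. It replaced the median over arrays after results under both had been seen, because the number of miRNAs called at week 6 (18, against 9 with the median) then matched an earlier account of these data.

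The test was limma 3.58.1 in R 4.3.3 on the 609 miRNAs that all arrays of some group detected, with 7 groups, 13 residual degrees of freedom and Benjamini-Hochberg adjustment, tested on simulated data. Tests were 2-sided. Correlations used 100000 resamples, or all permutations within a slide. Named miRNAs were the members, the red cell list, the miR-101 relatives, markers set beside a member, and the 5 nearest profiles. Members and lists were chosen with earlier results of these data known. The number of arrays limits the precision. The main fit did not pair arrays by replicate number. Correlations of same-numbered deviations between diets ran from -0.29 to 0.66, which does not settle whether the arrays were paired. Probe positions are in mm9, and sequences and neighbours are from RefSeq GRCm38.p6, where all 3 members matched. Alternatives changed the scaling, background, floor, filter, slide, weights and arrays.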

Additional observations from a re-analysis of the deposited data

Results flagged for a closer look

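miR-451b, which lies on the strand opposite Mir451a and enters none of the comparisons, was well above background on 2 arrays of 20, week 30 high fat replicates 2 and 3, at scaled intensities of 14.6 and 15.3. On the other week 30 high fat array it was at 3.47, and on the week 30 chow arrays it was at 0.017, 1.09 and 3.44. It stands out as a signal outside the main measurement that is above the level in every chow array. Those 2 arrays are the near-identical pair, so they count as close to 1 sample. They lay on slide 3, which held no chow array, so diet and slide cannot be told apart here.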

How the results depend on the processing

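Of 1211 values of 33 member results under up to 40 alternatives, 1159 kept their direction and their side of the threshold, 13 became calls, 35 turned their sign, 4 became 0, and 0 calls were lost, since none had been made. The differences between the diets at week 6 kept their sign for all 3 members, as did those of the mean over weeks, and those at week 30 for miR-451a and miR-144-3p. Leaving out each array in turn gave at week 6 between -1.54 and -0.86 for miR-451a. With 1 array left at week 0, that array was taken to vary like the other groups. The number of members called in chow at week 6 minus week 0 became 1, miR-144-3p, with normexp correction, with the groups of the comparison alone, within slide 1, with array weights and without the 4 arrays with fewest detected miRNAs, and was 0 to 1 when single arrays were left out. Array weights gave 3 in the mean diet effect and 2 in chow at week 18 minus week 6, where single arrays left out gave 0 to 2. Those 2 were miR-451a and miR-144-5p, and nothing is read from miR-144-5p in that step. A floor at the median array or lower by 1 changed no member's call. The replicate block changed no call, with -1.25 for miR-451a at week 6.

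The signs that turned belonged to values that were not called, and the cause was not tested. For high fat minus chow at week 18, miR-451a was -0.048 with the percentile over all miRNAs, -0.52 with array weights, -0.47 without the 4 arrays and -1.31 with diet taken from the described position. Leaving out single arrays gave -0.64 to 1.14 for miR-451a and -2.11 to 0.47 for miR-144-3p. At week 30 miR-144-5p was 0.37 with normexp. In chow at week 6 minus week 0, the percentile over all miRNAs gave -1.13 for miR-451a and -0.92 for miR-144-5p, no scaling gave -0.16 for miR-451a, quantile normalization gave -0.71 for miR-144-5p, and single arrays left out gave -0.023 to 0.66 for miR-451a. In chow at week 30 minus week 18, miR-451a was -0.23 with array weights, -0.58 without the 4 arrays and -0.37 with the described position, and miR-144-3p was -0.49 with normexp, -0.41 with array weights and -0.71 without the 4 arrays. Single arrays left out gave -0.58 to 1.20 for miR-451a, -0.71 to 1.57 for miR-144-3p and -0.59 to 0.074 for miR-144-5p. In high fat at week 6 minus week 0, miR-144-5p was 0.023 with normexp. At week 18 minus week 6, no scaling gave 0.60 for miR-451a and 0.14 for miR-144-3p, and without the 4 arrays miR-451a was 0.27. Single arrays left out gave -0.59 to 0.097 for miR-451a, -1.52 to 0.49 for miR-144-3p and -0.43 to 0.017 for miR-144-5p. At week 30 minus week 18, miR-144-3p was 0.22 with normexp and 0.63 without the 4 arrays, with single arrays left out giving -1.63 to 0.38, and miR-144-5p was 0.47 with normexp.

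Counts over all miRNAs moved more: 18 called at week 6 became 0 to 26 over the alternatives (9 with the floor at the median array), 0 at week 18 became up to 17, 0 at week 30 became up to 269, 0 in the mean up to 178, 132 in chow at week 6 minus week 0 became 0 to 271, 97 at week 18 minus week 6 became 1 to 368, and 6 in the diet effect over time became 0 to 63. The upper counts all came from array weights. The floor rule, the brighter probe alone and the median floor, the limit for near-identical arrays and the GC classes were chosen after seeing the data. At levels near background, where miR-144-5p lay on 9 arrays at the floor, sizes of differences are limited by the floor.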
